A study of Nicotiana tabacum with 6 samples.

Results

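Aquaporins are membrane channels that let water, and in some members small neutral solutes, pass through a lipid bilayer. In plants the plasma membrane intrinsic proteins (PIP) sit mainly in the plasma membrane, and PIP1 members generally need a PIP2 partner to reach it. The tonoplast intrinsic proteins (TIP) sit mainly in the vacuolar membrane, the nodulin-26-like intrinsic proteins (NIP) carry metalloids such as boron and silicon, the small basic intrinsic proteins (SIP) sit in the endoplasmic reticulum, and the uncharacterized intrinsic proteins (XIP) form a further type. Cells that take up water to expand depend on these channels in both membranes, which is why the family is often read out in growing callus and leaf tissue.

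The aquaporin loci were taken as every locus whose protein match contains the word aquaporin, which gave 68 of the 39825 loci in the expression table. They comprised 3 PIP1, 20 PIP2, 3 PIP loci with no stated class, 19 TIP, 17 NIP and 4 SIP loci, and 2 loci whose match names no type. No locus was matched to a XIP. Of the 68 loci, 58 also carried the gene ontology term for water channel activity, which the choice of loci did not use. The term and the protein match are both annotations of the same loci, and whether they are independent is not known. The loci lay on 17 chromosomes and 1 unplaced scaffold of the Niben261 assembly.

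Tobacco cotyledon explants were cultured for 2 weeks on medium with a low (0.1 mg/L) or a high (0.5 mg/L) dose of naphthaleneacetic acid (NAA), a synthetic auxin, and each treatment gave 3 RNA-seq libraries. The study's callus and shoot induction medium holds the same cytokinin, benzyladenine, and the antibiotics kanamycin and Timentin at every NAA dose. The labels name the plant Nicotiana tabacum, whereas the study describes Nicotiana benthamiana and the loci are those of the Niben261 genome of N. benthamiana. No source used here gives the genotype of the explants in these libraries, whether they had been inoculated, or whether the replicates came from separate cultures, so the p-values measure the spread between libraries, which may be technical.

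Values are FPKM, fragments scaled to transcript length and library size, so levels can be compared between genes. The total FPKM of a library was 1140994 to 1155639 at 0.1 mg/L and 986722 to 1015420 at 0.5 mg/L NAA, 0.87 times as high on average. The number of reads is unknown. Replicate 3 of the 0.1 mg/L treatment was the shallowest library, where 3983 loci had no signal (3311 to 3528 in the remaining libraries) and the estimated depth was 0.742 times that of replicate 1. Whole explants were sequenced, so fewer cells of a type and less RNA per cell cannot be told apart. Marker genes of some other cell states moved with the treatment. Of the 46 tested loci for chlorophyll a-b binding proteins and the Rubisco small subunit, 39 (84.8%) fell. The sum of all 51 loci of that list went from 7632 to 8442 FPKM to 2860 to 3850 FPKM. The sum of the 37 xylem and secondary wall loci was 258 to 270 FPKM at 0.1 and 112 to 170 FPKM at 0.5 mg/L, that of the 11 phloem loci 281 to 288 and 153 to 212 FPKM, and that of the 12 epidermis loci 33.9 to 35.5 and 54.2 to 116 FPKM. The 14 shoot meristem loci summed to 177 to 183 and 178 to 205 FPKM, and the 19 loci for mitotic cyclins and histone H4 to 898 to 915 and 447 to 563 FPKM. Counted by locus, at an adjusted p under 0.05 in the test described below, 20.2% of all loci tested were lower and 21.7% higher. Of 30 tested xylem loci 14 (46.7%) were lower and 4 (13.3%) higher, and of 8 phloem loci 3 (37.5%) lower and 1 (12.5%) higher. Of 9 epidermis loci 7 (77.8%) were higher, and of 11 shoot meristem loci 4 (36.4%) were higher and 4 (36.4%) lower. Of the 14 tested loci for mitotic cyclins and histone H4, 3 (21.4%, near the share of all loci) were lower and 11 did not pass the test. Their median log2FC was -0.10, so the sum and the count over loci differ. No locus of these lists was at 0 in all 6 libraries. The part of these shifts in the aquaporin results was not tested.

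More aquaporin loci fell than rose with the higher NAA dose. Differences were tested with limma on log2(FPKM + 1) over the 32443 loci with a mean of at least 0.5 FPKM, and p-values were adjusted over all of them by the Benjamini-Hochberg method. Of the 48 aquaporin loci tested, 22 (45.8%) were lower at 0.5 mg/L NAA and 4 (8.33%) were higher at an adjusted p under 0.05, against 20.2% and 21.7% of all loci tested. Down-regulated loci, with an adjusted p under 0.05 and a log2 fold change (log2FC) of -1 or less, numbered 9 (18.75%), and 1 locus (2.08%) was up-regulated, against 2.62% and 3.24% of all loci. In 23 aquaporin loci all 3 libraries at 0.5 mg/L lay below all 3 at 0.1 mg/L, and in 7 they lay above, where the shares over all loci were 25.9% and 28.8%. The median log2FC of the aquaporin loci was -0.32, against 0.02 over all loci, and 62.5% of the aquaporin loci and 48.1% of all loci had a log2FC below 0.

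These counts moved with the scaling between libraries. With every library rescaled to the same total, 9 aquaporin loci (18.8%) were higher and 18 (37.5%) lower, against 34.3% and 12.2% of all loci, and the median log2FC was -0.13 beside a median of 0.19 over all loci. With quantile normalization 8 (16.7%) were higher and 18 (37.5%) lower, against 18.8% and 19.7% of all loci. Without the shallow replicate 3 at 0.1 mg/L, 2 (4.17%) were higher and 19 (39.6%) lower, against 17.1% and 15.7% of all loci.

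**Figure D1:**
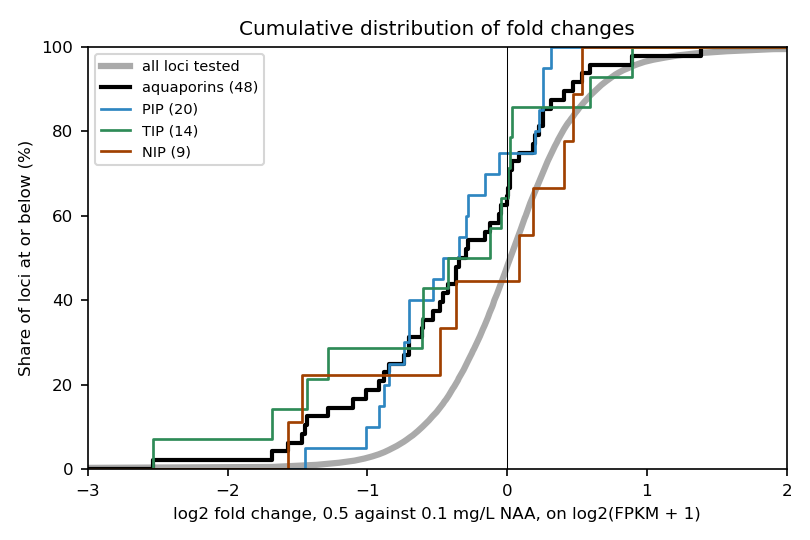
Cumulative share of loci (vertical axis, %) with a log2FC at or below the value on the horizontal axis (log2 of FPKM + 1, 0.5 against 0.1 mg/L NAA), for all loci tested, the 48 tested aquaporin loci, and the PIP (20), TIP (14) and NIP (9) loci among them. The aquaporin curve lies to the left of the curve of all loci over most of the range, and the NIP curve crosses the curve of all loci.

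Summed over the 68 loci, aquaporin levels were 7763 ± 300 FPKM (SD, n = 3) at 0.1 mg/L and 6751 ± 271 FPKM at 0.5 mg/L, 0.87 times as high, as was the total of the whole table. Aquaporins took 0.65% to 0.69% of the total FPKM of each library in both treatments, and the treatments overlapped. Sums by type are given as descriptions, since the smallest p an exact permutation test of 3 against 3 libraries allows is 0.1.

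PIP loci carried most aquaporin transcripts in every library, 70.1% to 75.0% of the aquaporin FPKM at 0.1 mg/L and 69.5% to 71.8% at 0.5 mg/L NAA. The PIP1 sum was 555 ± 2.63 FPKM at 0.1 mg/L and 426 ± 44.6 FPKM at 0.5 mg/L, without overlap. The PIP2 sum was 3438 ± 18.9 and 3177 ± 174 FPKM, also without overlap, but its ratio of 0.92 was above that of the whole table. As a share of the aquaporin FPKM, PIP2 was higher at 0.5 mg/L, at 46.3% to 47.6% against 43.1% to 46.0%. The sum of the 3 PIP loci of no stated class was 1603 ± 9.22 and 1189 ± 106 FPKM, the lowest of the ratios among these PIP groups at 0.74. The TIP sum was 1598 ± 273 and 1377 ± 30.3 FPKM, the NIP sum 493 ± 11.3 and 506 ± 26.6 FPKM, and the SIP sum 68.6 ± 4.50 and 67.0 ± 8.43 FPKM, and in these 3 types the treatments overlapped. The NIP share of the aquaporin FPKM did not overlap, at 6.13% to 6.48% at 0.1 mg/L and a higher 7.39% to 7.71% at 0.5 mg/L. The 3 loci with the highest levels made up 39.3% ± 0.0833 of the aquaporin FPKM at 0.1 mg/L and 44.6% ± 2.63 at 0.5 mg/L, without overlap. Among these loci only PIP2-4-like Niben261Chr15g1411014 had a higher mean at 0.5 mg/L, 1518 against 1294 FPKM. The unclassed PIP Niben261Chr17g0367003 went from 1153 to 912 FPKM and TIP1-1 Niben261Chr10g1199005 from 606 to 580 FPKM. The further water channel loci described below are not in this pool. They include Niben261Chr14g1340021, with a mean of 914 FPKM over the 6 libraries.

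**Figure D2:**
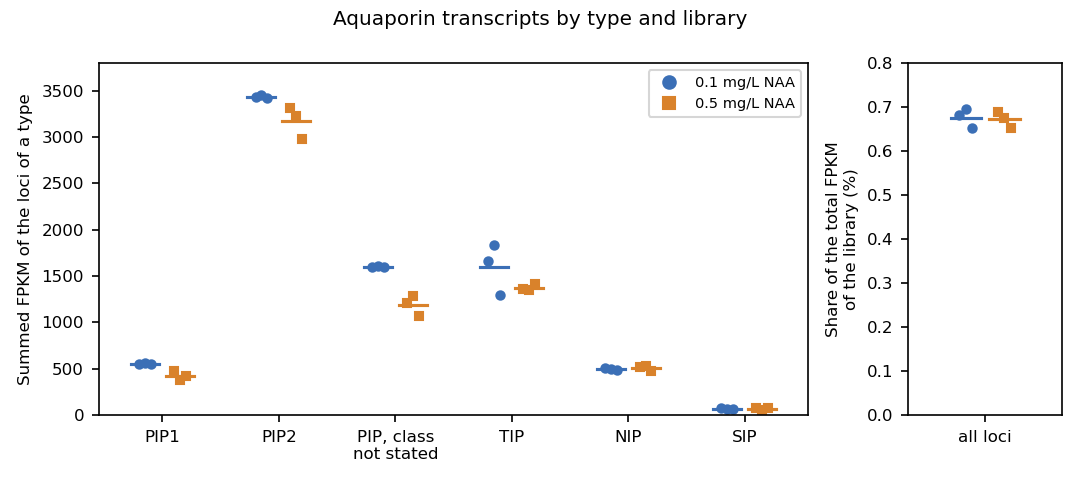
Left, summed FPKM of the aquaporin loci of each type, with a point for each library and a line at the mean of 3; right, the share of the total FPKM of the library that all 68 loci take (%). The PIP1, PIP2 and unclassed PIP sums of the treatments do not overlap, whereas the shares at the right, 0.65% to 0.69%, do.

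The PIP1 loci, all 3 matched to PIP1-2, were lower at 0.5 mg/L NAA in every library, and 2 of the 3 (66.7%) passed the test. Of all loci tested, 25.9% were apart in that direction and 20.2% passed the test as lower. Locus Niben261Chr03g0782004 had 54.3, 56.3 and 54.0 FPKM in replicates 1 to 3 at 0.1 mg/L and 29.6, 21.9 and 29.7 FPKM at 0.5 mg/L. The treatments were far apart, and the locus was down-regulated with a log2FC of -1.01 ± 0.12 (SE, limma adjusted p = 0.00087). Niben261Chr03g0423014 had 147, 145 and 141 FPKM at 0.1 mg/L and 103, 76.1 and 59.2 FPKM at 0.5 mg/L. Its values spread more widely at the higher dose, where replicate 1 was nearest to the lower dose, and its log2FC was -0.88 ± 0.18 (limma adjusted p = 0.0067). The most abundant PIP1 locus, Niben261Chr08g0768002, had 354, 356 and 357 FPKM at 0.1 mg/L and 339, 285 and 333 FPKM at 0.5 mg/L. Although its treatments did not overlap, the log2FC of -0.16 ± 0.08 did not pass the test (limma adjusted p = 0.16), and it was above 0 when libraries were rescaled to the same total.

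Among the PIP2 loci, whose products are the main water-conducting channels of the plasma membrane, 6 of the 14 tested (42.9%) fell and 1 (7.14%) rose. Of all loci tested, 20.2% fell and 21.7% rose. The other 7 PIP2 loci did not pass the test, and the median PIP2 log2FC was -0.29. The most abundant aquaporin locus of the table was Niben261Chr15g1411014, matched to PIP2-4-like, with 1278, 1287 and 1317 FPKM at 0.1 mg/L and 1493, 1605 and 1455 FPKM at 0.5 mg/L. All values at the higher dose lay above those at the lower dose, but the log2FC of 0.23 ± 0.08 missed the threshold (limma adjusted p = 0.058). Without replicate 3 at 0.5 mg/L it passed (limma adjusted p = 0.027). With every library rescaled to the same total it passed, with a log2FC of 0.42 (limma adjusted p = 0.0033). A second locus with the same protein match, Niben261Chr07g0421004, had 158, 168 and 158 FPKM at 0.1 mg/L and 204, 206 and 191 FPKM at 0.5 mg/L. It was the PIP2 locus that rose, by a log2FC of 0.31 ± 0.07 (limma adjusted p = 0.0086) under the main settings, and it passed under every alternative tried.

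PIP2-7 loci made up most of the PIP2 decreases. Niben261Chr13g0017003, matched to PIP2-7-like, had 217, 218 and 223 FPKM at 0.1 mg/L and 101, 86.6 and 58.3 FPKM at 0.5 mg/L. It was the down-regulated PIP2 locus, with a log2FC of -1.45 ± 0.18 (limma adjusted p = 0.0010) and libraries at the higher dose all below those at the lower. Of the other PIP2-7 loci tested, chosen here after their values were seen, 3 fell: Niben261Chr02g1151007 from 285 ± 3.83 to 159 ± 17.6 FPKM (SD, n = 3), Niben261Chr03g1232010 from 206 ± 15.0 to 144 ± 29.5 FPKM, and Niben261Chr10g0443018 from 163 ± 3.58 to 98.7 ± 22.3 FPKM. The call of Niben261Chr03g1232010 was lost without replicate 1 or 2 at 0.1 mg/L (limma adjusted p = 0.084 and 0.087) and under the same-total and quantile scalings. Niben261Chr18g0070002 (134 ± 12.3 and 154 ± 18.7 FPKM) and Niben261Chr10g0443019 (7.43 ± 2.90 and 8.74 ± 1.91 FPKM) had log2FC values above 0 and did not pass the test.

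The PIP2-5 locus Niben261Chr07g0293002 had 455, 468 and 453 FPKM at 0.1 mg/L and 417, 358 and 362 FPKM at 0.5 mg/L. The treatments did not overlap, and the log2FC was -0.28 ± 0.08 (limma adjusted p = 0.030), a call lost when any library other than replicate 1 at 0.5 mg/L was left out (limma adjusted p = 0.056 to 0.10), with a replicate block (0.057), and under both the same-total scaling (log2FC -0.08) and the quantile scaling, where the log2FC was above 0 at 0.13. The PIP2-1t locus Niben261Chr12g0240004 had 331, 319 and 330 FPKM at 0.1 mg/L and 321, 284 and 338 FPKM at 0.5 mg/L, and the treatments overlapped (log2FC -0.06 ± 0.08, limma adjusted p = 0.59). Its 95% interval ran from -0.25 to 0.13. The other PIP2-1t locus, Niben261Chr01g0020005, fell from 131 ± 7.14 to 69.8 ± 15.3 FPKM, with a log2FC of -0.92 ± 0.14 (limma adjusted p = 0.0025).

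The 3 PIP loci of no stated class were all matched to pTOM75, a PIP first described in ripening tomato fruit. All 3 fell, where 20.2% of all loci tested fell. The most abundant, Niben261Chr17g0367003, had 1159, 1164 and 1136 FPKM at 0.1 mg/L and 892, 1023 and 820 FPKM at 0.5 mg/L, the second highest level of the family. Its treatments did not overlap, with a log2FC of -0.34 ± 0.10 (limma adjusted p = 0.026), but the call was lost without any library at 0.1 mg/L or without replicate 1 at 0.5 mg/L (limma adjusted p = 0.051 to 0.098), without the minimum level (0.062), and under the same-total scaling (log2FC -0.15) and the quantile scaling (log2FC -0.02). Niben261Chr06g0413014 had 226, 227 and 239 FPKM at 0.1 mg/L and 161, 130 and 134 FPKM at 0.5 mg/L, a log2FC of -0.71 ± 0.09 (limma adjusted p = 0.0013). Niben261Chr05g1363004, with the same protein match, had 209, 221 and 228 FPKM at 0.1 mg/L and 160, 128 and 118 FPKM at 0.5 mg/L, a log2FC of -0.70 ± 0.12 (limma adjusted p = 0.0030). In both loci replicate 1 was the highest library at the higher dose, and both calls stood under every alternative.

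**Figure D3:**
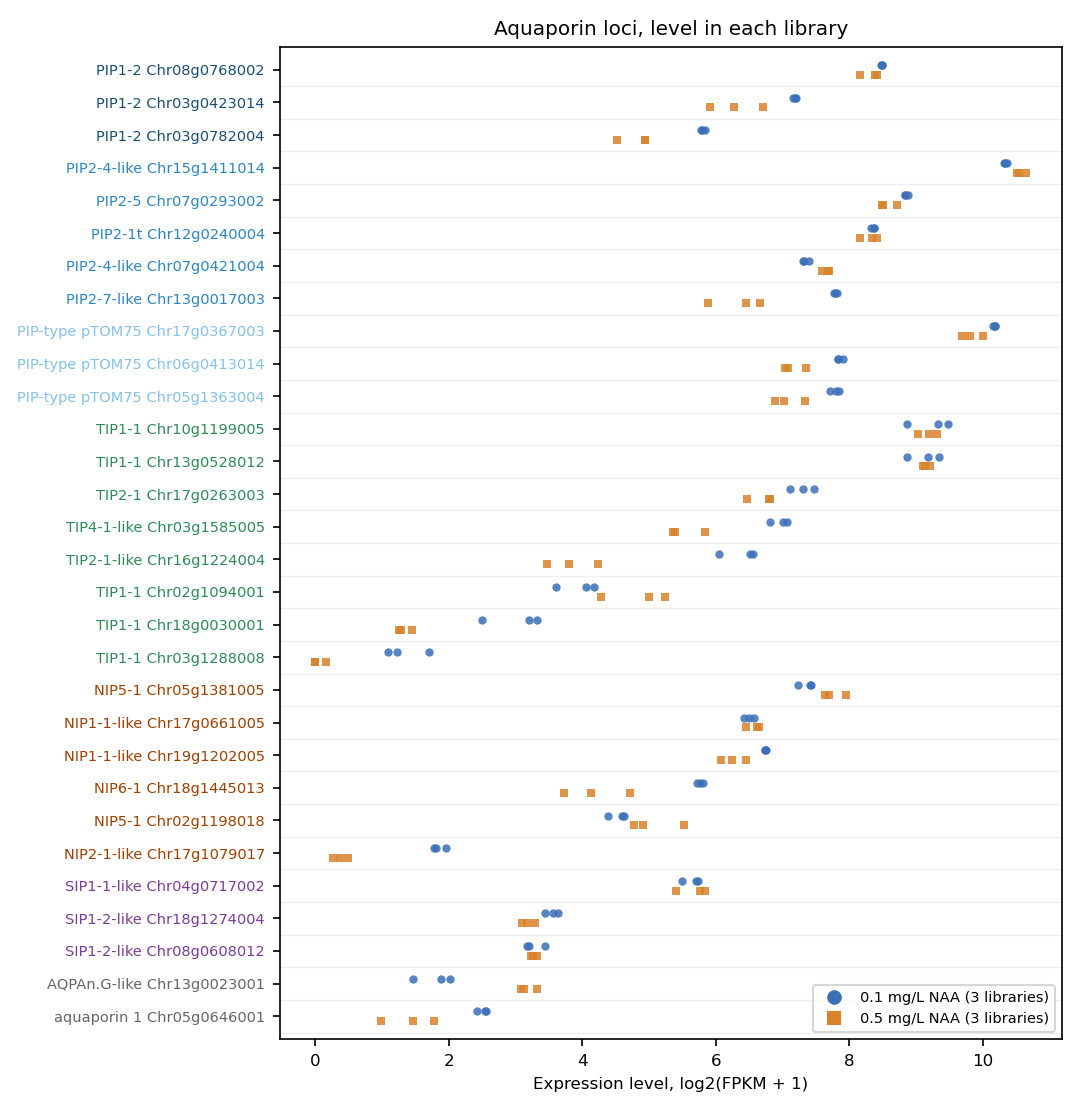
Level of the named aquaporin loci in each library, as log2(FPKM + 1), with circles for 0.1 mg/L and squares for 0.5 mg/L NAA and labels coloured by type. Circles and squares are far apart for PIP2-7-like Chr13g0017003, TIP4-1-like Chr03g1585005, TIP2-1-like Chr16g1224004 and NIP6-1 Chr18g1445013, and intermingle for both TIP1-1 loci with the highest levels and for SIP1-1-like Chr04g0717002.

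Of the 14 TIP loci tested, 6 (42.9%) fell, 1 (7.14%) rose and 7 did not pass the test. The shares over all loci were 20.2% lower and 21.7% higher. The median TIP log2FC was -0.27. Down-regulated were 4 of the 6 lower TIP loci, 28.6% of those tested, against 2.62% of all loci. TIP1-1, the channel through which much vacuolar water exchange of expanding cells is thought to run, dominated the type. Niben261Chr10g1199005 had 640, 712 and 466 FPKM at 0.1 mg/L and 522, 584 and 635 FPKM at 0.5 mg/L. Niben261Chr13g0528012, with the same match, had 579, 645 and 464 FPKM at 0.1 mg/L and 589, 562 and 546 FPKM at 0.5 mg/L. In both the treatments overlapped, and the shallow replicate 3 was the lowest library at 0.1 mg/L. Their log2FC values were -0.04 ± 0.16, with a 95% interval from -0.42 to 0.33, and 0.02 ± 0.12, with an interval from -0.27 to 0.31, and neither passed the test (limma adjusted p = 0.85 and 0.91).

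Among the abundant TIP loci, a TIP2-1-like, a TIP2-1 and a TIP4-1-like locus fell. In Arabidopsis TIP2-1 carries ammonia as well as water into the vacuole. Niben261Chr16g1224004, matched to TIP2-1-like, had 90.1, 92.6 and 65.0 FPKM at 0.1 mg/L and 17.8, 10.1 and 13.0 FPKM at 0.5 mg/L. On the log2(FPKM + 1) scale no other tested aquaporin locus had a lower log2FC, at -2.53 ± 0.21 (limma adjusted p = 0.00031). With a pseudocount of 0.1 FPKM it was at -2.61, and the weakly expressed TIP1-1 Niben261Chr03g1288008 at -3.63 and NIP2-1-like Niben261Chr17g1079017 at -2.78 lay below it. Even the lowest library of Niben261Chr16g1224004 at 0.1 mg/L was far above all libraries at 0.5 mg/L. Niben261Chr17g0263003, matched to TIP2-1, had 157, 176 and 138 FPKM at 0.1 mg/L and 110, 87.1 and 111 FPKM at 0.5 mg/L, a log2FC of -0.61 ± 0.12 (limma adjusted p = 0.0073), and of -0.38 with quantile normalization (limma adjusted p = 0.0504, just over the threshold). The TIP4-1-like locus Niben261Chr03g1585005 had 128, 132 and 111 FPKM at 0.1 mg/L and 56.1, 40.1 and 40.7 FPKM at 0.5 mg/L, a log2FC of -1.43 ± 0.14 (limma adjusted p = 0.00049). The treatments were apart in both of these loci. Summed over the 4 TIP2 loci, levels were 263 ± 36.5 FPKM at 0.1 mg/L and 140 ± 16.9 FPKM at 0.5 mg/L, whereas the 5 TIP1 loci summed to 1192 ± 224 and 1176 ± 29.8 FPKM. Another TIP2-1-like locus, Niben261Chr08g0071014, was at 22.9 FPKM in both treatments.

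Weakly expressed TIP1-1 loci moved in both directions. Niben261Chr02g1094001 had 15.7, 17.1 and 11.2 FPKM at 0.1 mg/L and 31.1, 36.8 and 18.5 FPKM at 0.5 mg/L, a log2FC of 0.89 ± 0.26 (limma adjusted p = 0.026). Its lowest library at 0.5 mg/L lay just above the highest at 0.1 mg/L, and the call was lost without replicate 1 or 3 at 0.1 mg/L or replicate 1 or 2 at 0.5 mg/L (limma adjusted p = 0.059 to 0.088). Niben261Chr18g0030001 had 8.23, 9.04 and 4.67 FPKM at 0.1 mg/L and 1.74, 1.44 and 1.38 FPKM at 0.5 mg/L, a log2FC of -1.68 ± 0.22 (limma adjusted p = 0.0012). Niben261Chr03g1288008 had 2.27, 1.33 and 1.13 FPKM at 0.1 mg/L and was listed at 0, 0.12 and 0 FPKM at 0.5 mg/L, a log2FC of -1.29 ± 0.20 (limma adjusted p = 0.0025). Both were down-regulated from low levels. RB7-18C, named after a root-specific tobacco TIP, had 1 lower locus, Niben261Chr14g0942004, at 10.8 ± 0.115 and 6.75 ± 1.23 FPKM. TIP3 channels, known from seed storage vacuoles, stayed at a mean of at most 3.14 FPKM in either treatment.

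Of the 9 NIP loci tested, 3 (33.3%) fell, 1 (11.1%) rose and 5 did not pass the test, with a median log2FC of 0.08. The shares over all loci were 20.2% lower and 21.7% higher, and 9 loci are few for such a comparison. NIP5-1 and NIP6-1 are boron channels in Arabidopsis, NIP5-1 for uptake at the root and NIP6-1 for distribution to young shoot tissue. The NIP5-1 locus Niben261Chr05g1381005 had 170, 170 and 149 FPKM at 0.1 mg/L and 206, 247 and 197 FPKM at 0.5 mg/L. It rose by a log2FC of 0.40 ± 0.10 (limma adjusted p = 0.018), and without the shallow replicate 3 at 0.1 mg/L the log2FC was 0.34 (limma adjusted p = 0.063). The second NIP5-1 locus, Niben261Chr02g1198018, had 23.7, 23.1 and 19.8 FPKM at 0.1 mg/L and 26.3, 44.8 and 29.1 FPKM at 0.5 mg/L. Its treatments did not overlap either, but the log2FC of 0.53 ± 0.19 missed the threshold (limma adjusted p = 0.054), which it passed without replicate 1 at 0.5 mg/L (limma adjusted p = 0.025), with a replicate block (0.042) and under the same-total scaling (0.015). The most abundant NIP6-1 locus, Niben261Chr18g1445013, went the other way, with 54.8, 51.9 and 53.6 FPKM at 0.1 mg/L and 25.3, 16.5 and 12.3 FPKM at 0.5 mg/L. It was down-regulated, with a log2FC of -1.57 ± 0.22 (limma adjusted p = 0.0016). Summed by subtype, NIP5 was at 185 ± 14.1 and 250 ± 36.5 FPKM and NIP6 at 54.8 ± 1.90 and 18.9 ± 7.06 FPKM, and in neither sum did the treatments overlap.

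The other tested NIP loci were NIP1-1-like, NIP2-1-like and a weakly expressed NIP6-1 locus, Niben261Chr08g0150020. That NIP6-1 locus was at 1.24 ± 0.552 FPKM at 0.1 mg/L and 0.743 ± 0.480 FPKM at 0.5 mg/L. It did not pass the test (log2FC -0.37 ± 0.26, limma adjusted p = 0.30). Niben261Chr19g1202005, NIP1-1-like, had 106, 105 and 106 FPKM at 0.1 mg/L and 86.5, 74.4 and 66.7 FPKM at 0.5 mg/L, a log2FC of -0.48 ± 0.10 (limma adjusted p = 0.0067). Niben261Chr17g0661005, also NIP1-1-like, had 89.0, 84.3 and 93.7 FPKM at 0.1 mg/L and 86.2, 99.3 and 97.6 FPKM at 0.5 mg/L. The treatments were apart in the first and overlapped in the second, whose log2FC was 0.08 ± 0.08 (limma adjusted p = 0.45). The other NIP1-1-like loci had log2FC values above 0 and did not pass. Niben261Chr16g0187014, with the treatments apart, was at 0.47 ± 0.17 (limma adjusted p = 0.057). It passed under the same-total scaling, with a replicate block and without replicate 2 at 0.5 mg/L. Niben261Chr07g1266007, with overlap, was at 0.19 ± 0.22 (limma adjusted p = 0.54). Niben261Chr17g1079017 was matched to NIP2-1-like, the type that carries silicon in rice. It had 2.45, 2.89 and 2.49 FPKM at 0.1 mg/L and 0.20, 0.41 and 0.30 FPKM at 0.5 mg/L, and was down-regulated with a log2FC of -1.47 ± 0.14 (limma adjusted p = 0.00050).

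Of the 3 SIP loci tested, 1 (33.3%) fell and the other 2 did not pass the test, where 20.2% of all loci fell. A share over 3 loci is a description only. The SIP1-1-like locus Niben261Chr04g0717002 had 52.2, 44.0 and 51.2 FPKM at 0.1 mg/L and 53.0, 41.4 and 56.0 FPKM at 0.5 mg/L, and in both treatments replicate 2 was the lowest. Its log2FC was 0.02 ± 0.13, with a 95% interval from -0.27 to 0.32 (limma adjusted p = 0.90). The SIP1-2-like locus Niben261Chr18g1274004 had 9.92, 11.5 and 10.8 FPKM at 0.1 mg/L and 8.78, 7.53 and 8.05 FPKM at 0.5 mg/L, a log2FC of -0.36 ± 0.10 (limma adjusted p = 0.021), a call lost without replicate 2 or 3 at 0.1 mg/L (limma adjusted p = 0.083 and 0.061), under the same-total scaling (log2FC -0.19) and with a replicate block (limma adjusted p = 0.058). Niben261Chr08g0608012, with the same protein match, was at 8.70 ± 1.04 and 8.69 ± 0.342 FPKM.

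The 2 loci of no stated type moved in opposite directions. Niben261Chr13g0023001, matched to AQPAn.G-like, a name taken from a mosquito aquaporin, had 2.71, 3.05 and 1.77 FPKM at 0.1 mg/L and 9.00, 7.47 and 7.77 FPKM at 0.5 mg/L. It was the up-regulated aquaporin locus, with a log2FC of 1.39 ± 0.16 (limma adjusted p = 0.00085). Niben261Chr05g0646001, matched to aquaporin 1, had 4.86, 4.91 and 4.38 FPKM at 0.1 mg/L and 1.77, 2.44 and 0.98 FPKM at 0.5 mg/L, a log2FC of -1.10 ± 0.20 (limma adjusted p = 0.0046). The treatments were apart in both loci.

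**Figure D4:**
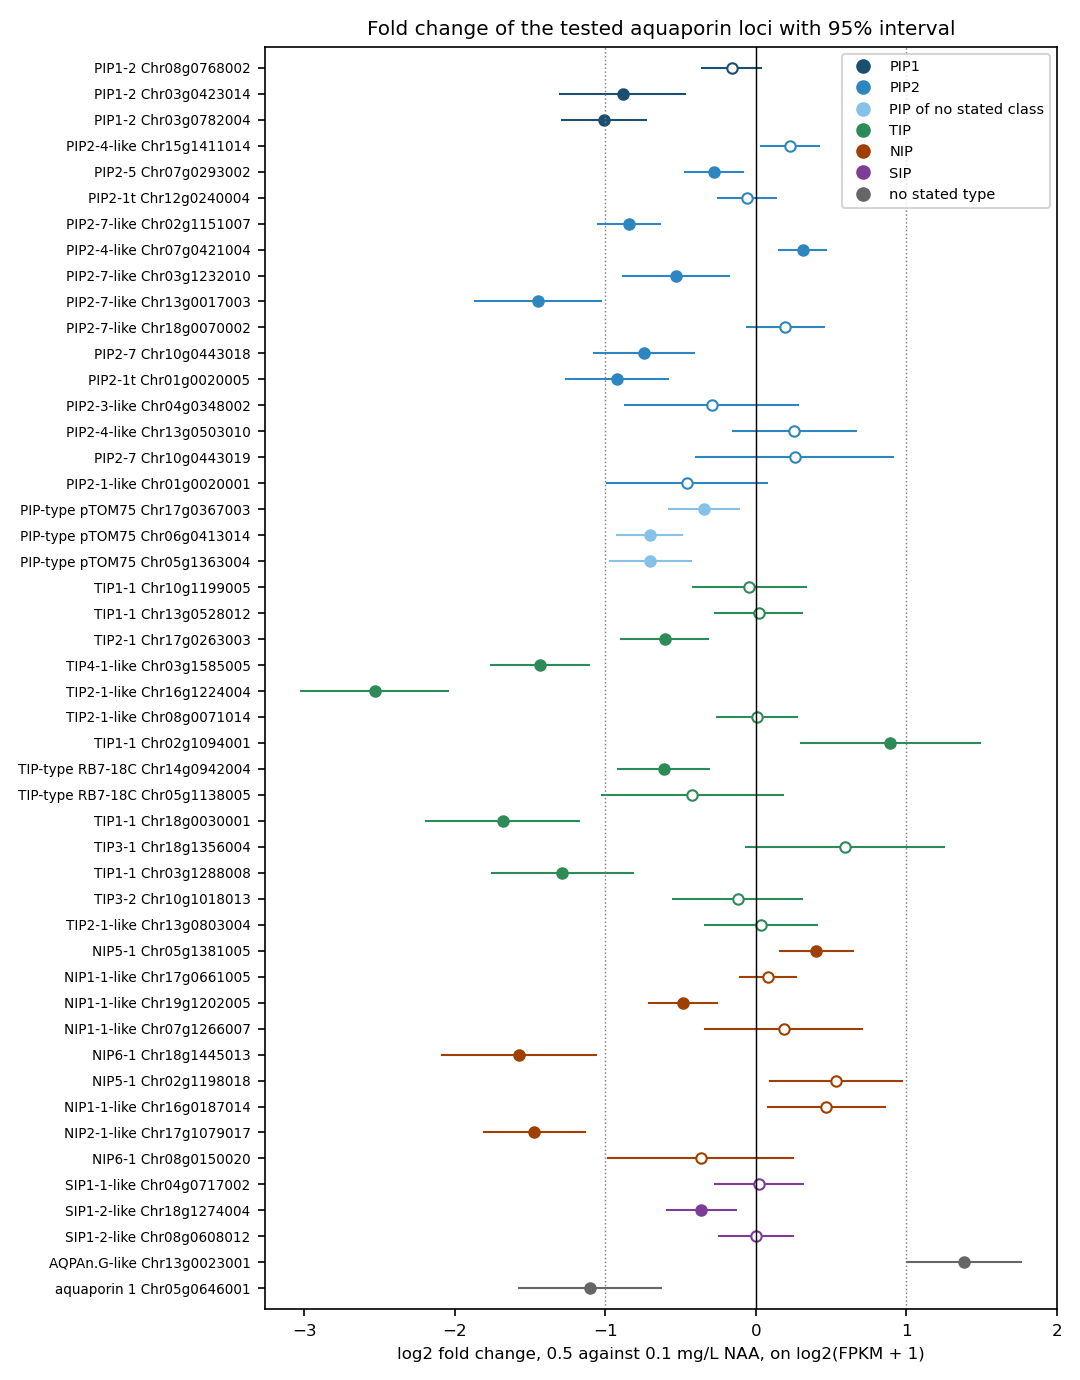
Log2FC of the 48 tested aquaporin loci (horizontal axis, log2 of FPKM + 1, 0.5 against 0.1 mg/L NAA) with 95% intervals, coloured by type; filled points have an adjusted p under 0.05 and dotted lines mark -1 and 1. Of the filled points, 22 lie left of 0 and 4 right of it, and TIP2-1-like Chr16g1224004 is farthest left at -2.53.

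Of 15 groups of loci that share a match, 9 had at least 2 tested loci: in 2 groups every tested locus fell, in 6 some passed the test and others did not (the difference between copies was not tested, and in the PIP2-4-like and NIP5-1 pairs both log2FC values were above 0), in 1 none passed, and in no group did loci pass in opposite directions. Reads of near-identical copies can be split between them in counting, so values within such a group are uncertain. Decreases occurred at high and at low levels. Of the 19 loci with a mean of at least 100 FPKM, 11 (57.9%) fell and 2 (10.5%) rose. Of the 29 tested loci below that, 11 (37.9%) fell and 2 (6.9%) rose. Over tested loci of all levels 20.2% fell and 21.7% rose. The shares of all loci within these level ranges were not counted, so a relation to abundance was not tested. The down-regulated aquaporin loci were mostly among the tested loci below 100 FPKM, 8 (27.6%) against 1 (5.26%), where 2.62% of all loci were down-regulated. Among the 22 lower loci, replicate 1 at 0.5 mg/L was nearest to the 0.1 mg/L treatment in 14 (63.6%), as it was in 54.3% of all 6567 lower loci.

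The 20 loci that were not tested were 6 PIP2, 5 TIP, 8 NIP and 1 SIP loci, with means of at most 0.375 FPKM and no single value above 0.94 FPKM. They included both NIP7-1 loci, pollen channels in Arabidopsis, all 5 loci matched only to NIP-type, and the TIP5-1 locus. Together they summed to 3.18 to 3.44 FPKM at 0.1 mg/L and 1.30 to 4.02 FPKM at 0.5 mg/L. The tested aquaporin loci had means of 0.61 FPKM or more.

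A further 9 loci were described as water channels, intrinsic proteins or nodulin-26-like, or carried the water channel term, without the word aquaporin. They enter none of the type sums above, although they include loci named putative PIP2 and TIP1. Of the 7 tested, 3 fell and none rose at a limma adjusted p under 0.05, where 20.2% of all loci tested fell and 21.7% rose. These 3 were matched to a water channel protein of Nicotiana excelsior. Niben261Chr14g1340021 went from 1069 ± 9.63 to 759 ± 47.1 FPKM, Niben261Chr16g1203004 from 509 ± 30.0 to 356 ± 41.9 FPKM, and Niben261Chr03g0069012 from 668 ± 14.5 to 549 ± 35.1 FPKM. The rest did not pass. Their log2FC was -0.27 for the hypothetical protein Niben261Chr01g0584021, -0.16 for the putative PIP2 Niben261Chr15g0376007 and -0.14 for the TIP1 Niben261Chr10g1137007. It was 0.27 for the nodulin-26-like Niben261Chr17g0453009. With these 9 loci included, 77 loci took 0.86% to 0.91% of the total FPKM at 0.1 mg/L and 0.82% to 0.88% at 0.5 mg/L NAA, and the treatments still overlapped.

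The lists of other water and ion transport genes are read against the 21.7% of all loci that were higher and the 20.2% that were lower. Of 9 tested plasma membrane proton pump loci, whose products energize solute uptake, 6 (66.7%) rose and none fell, with a median log2FC of 0.36. The most abundant, Niben261Chr18g0421002 (plasma membrane ATPase 4), rose from 209 ± 6.36 to 289 ± 11.6 FPKM (limma adjusted p = 0.0017). Of 32 tested osmosensitive and mechanosensitive channel loci, 12 (37.5%) rose and none fell, with a median log2FC of 0.26. Of 10 vacuolar proton pyrophosphatase loci, 5 rose and 1 fell, with a median of 0.30, and of 54 vacuolar proton ATPase subunit loci, 15 (27.8%) rose and 12 (22.2%) fell, with a median of 0.04, shares near those of all loci. The order of these ATPase counts turned without any library at 0.1 mg/L, to 9 higher and 10 lower without replicate 1. Potassium channels and transporters counted 15 higher and 5 lower among 54, with a median of 0.22. Osmotic stress proteins counted 4 higher (28.6%, near the share of all loci) and 1 lower among 14, with a median of 0.09. All 26 osmotic stress loci summed to 2162 to 2330 FPKM at the lower and 3413 to 4783 FPKM at the higher NAA dose. These osmotic stress ranges did not overlap, and 2 of the 4 higher loci were up-regulated, so the sum and the count over loci differ. The proton pump and mechanosensitive channel counts ranged with the library left out, from 4 to 7 and from 7 to 13 loci higher.

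Boron transporters, the exporters that work together with NIP channels in Arabidopsis, rose in 3 of 7 tested loci (42.9%) and fell in none. Of all loci tested, 21.7% rose and 20.2% fell. The median log2FC of the boron transporters was 0.21. Without replicate 1 or without replicate 2 at 0.5 mg/L, 3 were higher and 1 lower. Niben261Chr10g1046007, matched to probable boron transporter 2, had 63.6, 63.0 and 64.6 FPKM at 0.1 mg/L and 126, 217 and 143 FPKM at 0.5 mg/L. It was up-regulated with a log2FC of 1.29 ± 0.18 (limma adjusted p = 0.0017), with all libraries at the higher dose far above those at the lower. Replicate 2 was the highest library in it as in both NIP5-1 loci, and a link between them was not tested. A second locus of that name, Niben261Chr06g0582008, went from 5.96 ± 0.692 to 14.1 ± 1.93 FPKM (limma adjusted p = 0.00076).

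**Figure D5:**
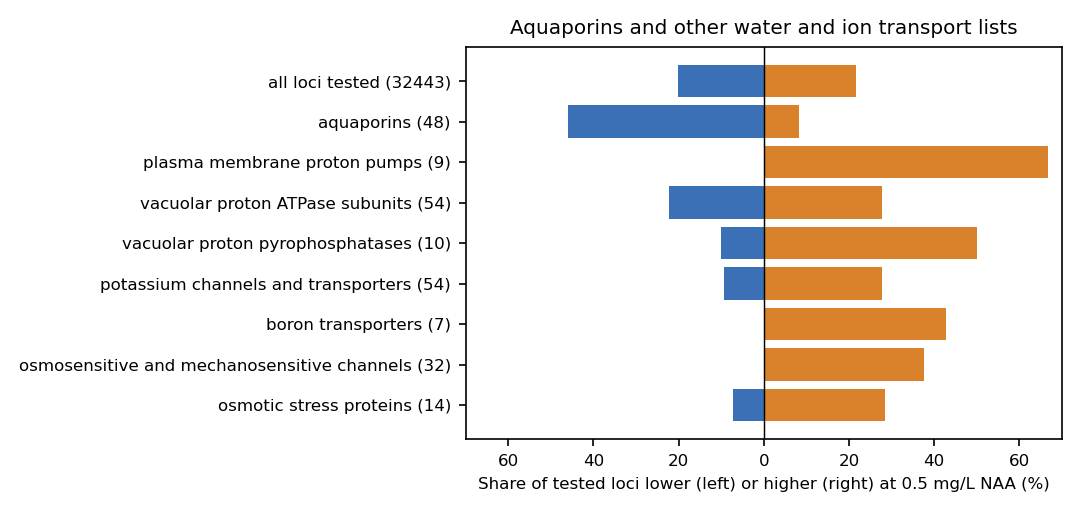
Share of tested loci (%) lower (bars to the left) or higher (bars to the right) at 0.5 mg/L NAA at an adjusted p under 0.05, for all loci tested, the aquaporins and 7 lists of other water and ion transport genes, with the number of tested loci in brackets. Aquaporins have the longest bar to the left, 45.8%, and the plasma membrane proton pumps the longest to the right, 66.7%.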

How the data were processed

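Members were the loci whose protein description contains aquaporin, and types were read from that description. Members and lists were chosen with earlier results of these data known. The authors deposited 1 table of FPKM values, normalized for transcript length and library size, for 6 libraries made with a SMARTer mRNA-Seq kit; the aligner and counter for these libraries are not given in the sources used here. Columns were mapped to samples by the sample descriptions. The table holds no counts, so no count model was fitted and the depth is unknown; relative depth came from the steps between low FPKM values.

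Treatments were compared by limma 3.58.1 under R 4.3.3 (linear model, moderated variances, mean-variance trend) on log2(FPKM + 1), a scale that understates the change of weakly expressed loci, for loci with a mean of at least 0.5 FPKM. P-values were two-sided and adjusted by the Benjamini-Hochberg method over 32443 loci. The script was tested on simulated data. Tables and figures used Python 3.11.15, pandas 2.3.3 and matplotlib 3.10.9.

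Named are loci past both thresholds (adjusted p under 0.05, absolute log2FC of at least 1), the 3 most abundant loci of each type, and the locus of each type with the largest and the smallest log2FC; other loci appear where a count or a protein match singles them out, and were chosen after their values were seen. Alternatives were a pseudocount of 0.1, no minimum or a minimum of 1 FPKM, median-of-ratios scaling, quantile scaling, rescaling to a common total (TPM), a replicate block, no trend, and leaving out each library. The study's methods state no pairing by replicate number, so the main fit had no replicate block. Deviations of same-numbered libraries correlated at 0.0216, 0.0098 and 0.0096, all near 0.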

Additional observations from a re-analysis of the deposited data

How the results depend on the processing

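The direction of the aquaporin result, more loci lower than higher, held under all 14 alternatives run, with 18 to 22 loci lower, 2 to 9 higher and 7 to 11 down-regulated. Of the 22 lower loci 17 kept their call under every alternative in which they were tested (TIP1-1 Niben261Chr03g1288008 falls below the minimum of 1 FPKM and had 13), as did 2 of the 4 higher loci. The number of higher loci was 9 with libraries rescaled to the same total (TPM), where 2 were up-regulated and the median log2FC was -0.13, and 8 with quantile normalization, where the median was -0.18. Without the minimum level the median was -0.10, over 68 loci in place of 48. Leaving out single libraries gave 2 to 6 higher, 18 to 22 lower, 1 to 2 up-regulated and 8 to 11 down-regulated loci, and medians of -0.35 to -0.20. The fit with a replicate block gave 6 higher, 20 lower, 1 up-regulated and 9 down-regulated loci. Deviations of same-numbered libraries from their treatment means correlated at 0.0216, 0.0098 and 0.0096, and those of the other pairs at -0.0103 to 0.0003. All were near 0, so they do not decide whether replicate numbers pair the samples.

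Loci with small fold changes changed sign with the scaling, and the cause was not tested. With rescaling to the same total, log2FC was 0.032 for PIP1-2 Niben261Chr08g0768002, 0.13 for PIP2-1t Niben261Chr12g0240004 and 0.15 for TIP1-1 Niben261Chr10g1199005. With quantile normalization it was 0.25, 0.35 and 0.37 for these loci, 0.13 for PIP2-5 Niben261Chr07g0293002 and -0.11 for SIP1-2-like Niben261Chr08g0608012. With median-of-ratios scaling it was -0.0046 for TIP1-1 Niben261Chr13g0528012, -0.00098 for SIP1-1-like Niben261Chr04g0717002 and -0.019 for Niben261Chr08g0608012. Without single libraries, log2FC ranged from -0.22 to 0.083 for Niben261Chr10g1199005, from -0.11 to 0.12 for Niben261Chr13g0528012, from -0.11 to 0.012 for Niben261Chr12g0240004, from -0.062 to 0.15 for Niben261Chr04g0717002 and from -0.045 to 0.089 for Niben261Chr08g0608012. Depth limits the loci below 1 FPKM most, since the reads behind a value are unknown.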
